A study of Mus musculus with 2 samples.

Results

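Msx1, Msx2, Atoh8, Tbx2 and Tbx3 encode 5 transcription factors whose genes are known to respond to bone morphogenetic protein (BMP) signalling in several tissues. They were taken as every non-control probe whose gene name on the array was one of these symbols, which gave 5 probes of 39429, 1 for each gene, and all 5 passed the filter on dim signal. Ureters of wild-type NMRI mouse embryos at embryonic stage E13.75 (sexes mixed) were cultured on membranes for 18 h with 10 µg/ml NOGGIN, or in the same way without NOGGIN as controls. From each sample 200 ng of total RNA was amplified and dye-labelled. The 2 arrays were two-colour arrays that each took 1 NOGGIN and 1 control sample, with the dyes exchanged on the second, so n is 2 for every mean below. The labels number the samples and do not say whether the pairs came from separate litters or how many ureters were pooled. Every p-value therefore concerns these samples only. Those of limma, given below, also draw on the variance over all features and not only on a gene's own spread.

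BMPs bind receptors that phosphorylate SMAD1, SMAD5 and SMAD9, which then activate target genes together with SMAD4. NOGGIN is a secreted protein that holds BMPs away from their receptors. In the embryonic ureter, BMP4 from the mesenchyme is needed for the smooth muscle coat and for urothelial differentiation. MSX1 and MSX2 are homeodomain repressors and common BMP targets in limb, tooth and neural crest. ATOH8 is a basic helix-loop-helix (bHLH) factor induced by BMP-SMAD signalling in liver and endothelium. TBX2 and TBX3 are T-box repressors of the inner ureteric mesenchyme, where WNT signals from the epithelium also control them.

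The probes that carry the values are shown by their first 30 bases of 60, read 5′ to 3′ from the scanner files, so that each measured stretch can be placed. None of these letters is in capitals, because no part of a probe was singled out.
Msx1: acacttcctcctggttgtcgcttcctaaac
Msx2: cctgtccatctcttcccccagtatattttt
Atoh8: tcgtccaaggaaattatggatgaggcccca
Tbx2: tttttgctccagagggagaacgaagcgaga
Tbx3: ctttatggtgttttggattggtgtactgag

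In the files' mouse build, mm9, the Msx1 probe lies at chr5:38212305-38212364 on the minus strand and starts at base 1296 of its transcript. The Msx2 probe lies at chr13:53562318-53562377, minus strand, from transcript base 2034. That of Atoh8 lies at chr6:72156816-72156875, minus strand, from base 1650. The Tbx2 probe is at chr11:85655391-85655450, plus strand, from base 3502, and the Tbx3 probe at chr5:120134511-120134570, plus strand, from base 4554. Each probe falls in a transcribed stretch of its own gene by the array's annotation, and exon and UTR limits of that build were not used here. With 1 probe for each gene, no second probe could check a value. Each probe was printed as 4 spots, and all 4 were well above background in both channels on both arrays for all 5 genes. One Msx2 spot on array 1 and one Tbx2 spot on array 2 carried outlier flags and were left out.

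The sources disagree on the direction. Signed values below are NOGGIN-labelled over control-labelled channel, by the dyes that the labels give for each array. By these labels Id1, the standard BMP-SMAD target, had a log2 ratio of 2.14 ± 0.09 (SD, n = 2), higher in the channel labelled NOGGIN. In the authors' deposited table, whose titles set NOGGIN against control, Id1 has signed fold changes of -4.65 and -4.53, and all 5 genes described here are negative on both arrays. Read in the order of the titles, that table gives the opposite direction. From the pathway as described above, NOGGIN would lower Id1. The order of the titles gives that direction and the dye labels do not. Whether the channel labels are exchanged was not tested. Were the labels of the channels swapped, each sign would turn and no size would change.

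Msx2 and Atoh8 were higher in the channel labelled NOGGIN by more than 1.5-fold on both arrays, in the direction of Id1, while Msx1, Tbx2 and Tbx3 stayed below 1.5-fold on both. Thus 2 of the 5 genes passed the fold rule (a difference of 1.5-fold or more with 1 sign on both arrays) as higher and 0 as lower, against 0.941% of all 22311 features that passed it as higher and 1.25% as lower. Log2 ratios were above 0 on both arrays for 4 of the 5, against 20.4% of all features. The median of the 5 mean log2 ratios was 0.25, against -0.01 over all features. These genes were grouped for their known BMP response with results of these arrays in view, so the counts describe them and are no test. In limma's moderated test none of the 5 passed a Benjamini-Hochberg adjusted p of 0.05, and neither did any of the 22311 features (0%). At an unadjusted p under 0.05 limma took 2 of the 5 and 1348 features (6.04%), and with trend and robust variance limma passed 141 features at the adjusted threshold.

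**Figure D1:**
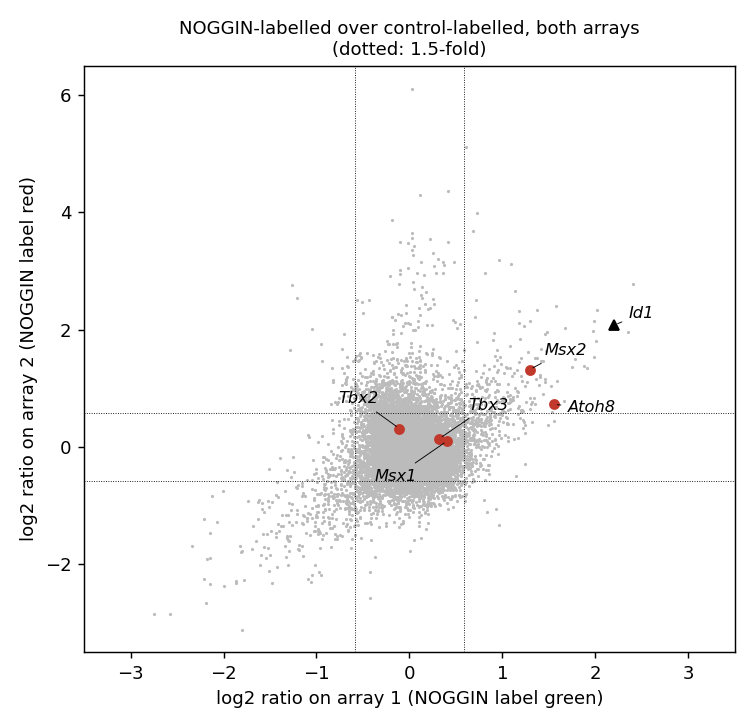
Log2 ratio of the NOGGIN-labelled over the control-labelled channel on array 1 (x axis) and array 2 (y axis) for 22311 features (grey), the 5 genes (red) and Id1 (black triangle), with dotted lines at 1.5-fold. Msx2 (1.30 and 1.32) and Atoh8 (1.55 and 0.72) lie in the upper right field past both lines, as does Id1, and Msx1, Tbx2 and Tbx3 lie inside the lines.

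Msx2, a homeodomain repressor that acts in bone, skull and limb, had the largest mean ratio of the 5 and, after the loess fit, the smallest gap between the arrays. Its normalized log2 intensity was 10.04 on array 1 and 10.47 on array 2 in the channels labelled NOGGIN, against 8.74 and 9.15 in those labelled control. Both channels labelled NOGGIN were above both labelled control, which held for 4 of the 5 genes and for 14.3% of all features. The log2 ratio was 1.30 on array 1 and 1.32 on array 2, with a mean of 1.31 ± 0.02 (SD, n = 2), a fold of 2.48. Limma's 95% interval ran from 0.91 to 1.71, and the adjusted p was 0.105. By size this mean ranked 156 among 22311 features, and from the highest down it ranked 88. The spots ran from 1.15 to 1.44 on array 1, where 3 were used, and from 0.87 to 1.61 on array 2, so each one was above 1.5-fold. When each array was centred on its median in place of the loess fit, the arrays were apart for Msx2 too, at 1.61 on array 1 and 0.93 on array 2, both still above 1.5-fold. Among probes above background in both channels, where fewer features were tested, the adjusted p of Msx2 was 0.0399, and over the other settings it ran up to 0.62.

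Atoh8, the bHLH factor, was higher on both arrays by unequal amounts. Its normalized log2 intensity was 11.47 and 10.85 in the channels labelled NOGGIN, against 9.92 and 10.12 in those labelled control, again without overlap. The log2 ratio was 1.55 on array 1 and 0.72 on array 2, which gives folds of 2.93 and 1.65. Its mean was 1.14 ± 0.59 (SD, n = 2), limma's 95% interval ran from 0.53 to 1.74 and the adjusted p was 0.27. Its SD of 0.59 was wider than the median SD of 0.19 between the arrays over all features. The spots of array 1 (1.28 to 1.74) did not overlap those of array 2 (0.46 to 1.01). With array 2 left out the value was 1.55, and with array 1 left out it was 0.72. With median centring Atoh8 had 1.94 on array 1 and 0.30 on array 2 and no longer passed 1.5-fold on both.

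**Figure D2:**
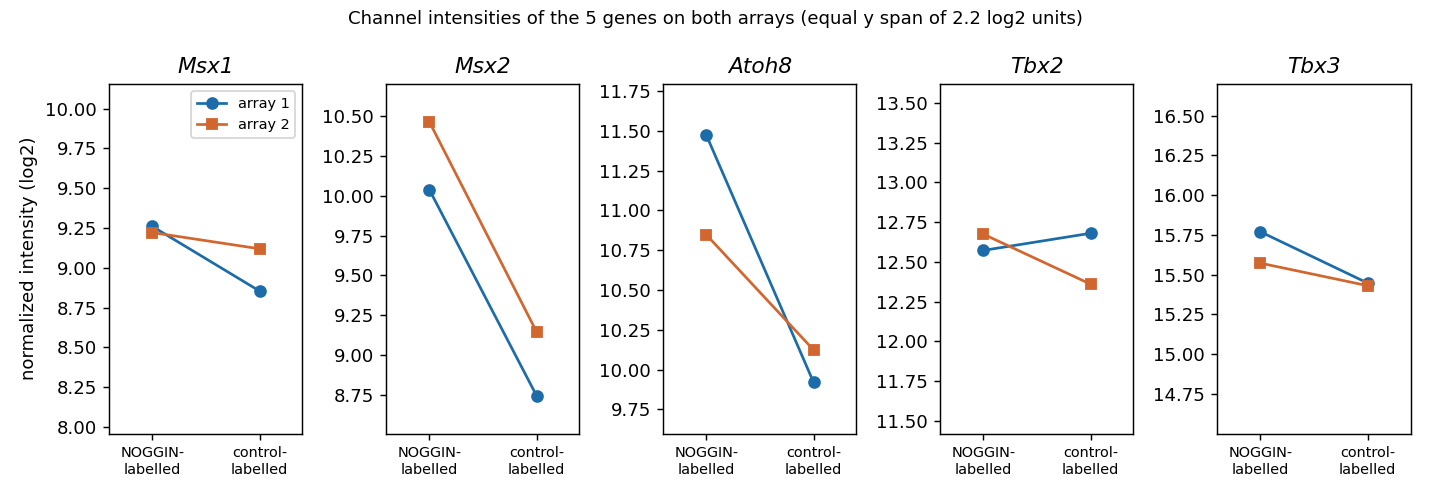
Normalized log2 intensity (y axis, with an equal span in every panel) of the 5 genes in the channel labelled NOGGIN (left) and the channel labelled control (right), with a line for each array. The lines of Msx2 and Atoh8 fall to the control side on both arrays, those of Msx1 and Tbx3 fall less, and those of Tbx2 slope in opposite directions. Heights are not comparable between panels, since each gene was read by its own probe.

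Msx1, the paralog of Msx2 and a regulator of tooth and palate growth, stayed below 1.5-fold on both arrays after the loess fit. Its normalized log2 intensity was 9.26 and 9.22 in the channels labelled NOGGIN, against 8.85 and 9.12 in those labelled control. The groups did not overlap, but the values of array 2 were close. The log2 ratio was 0.41 on array 1 and 0.10 on array 2, with a mean of 0.25 ± 0.22 (SD, n = 2), a 95% interval from -0.18 to 0.69 and an adjusted p of 1.00 by limma. On array 2 its spots lay on both sides of 0, from -0.31 to 0.36. With median centring Msx1 had 0.69 on array 1, above 1.5-fold, and -0.23 on array 2, of opposite sign. The ratio of Msx2 exceeded that of Msx1 by 0.89 on array 1 and 1.22 on array 2, a mean difference of 1.05 ± 0.23 (SD, n = 2). An exact sign-flip test of that difference gave p = 0.5, two-sided, which is the smallest that 2 arrays allow.

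Tbx3, a T-box repressor needed for limb and mammary gland formation, was close to 0 as well. Its normalized log2 intensity was 15.77 and 15.57 in the channels labelled NOGGIN, against 15.45 and 15.43 in those labelled control. The groups did not overlap, though spots of array 2 fell on both sides of 0 (-0.21 to 0.47). The log2 ratio was 0.32 on array 1 and 0.14 on array 2, with a mean of 0.23 ± 0.13 (SD, n = 2), a 95% interval from -0.18 to 0.64 and an adjusted p of 1.00 by limma. Its raw signal was 60886 and 48085 in the channels labelled NOGGIN and 33116 and 56904 in those labelled control, with no saturated spot. In these raw values the green dye was the brighter on both arrays.

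Tbx2, the paralog of Tbx3 and a repressor of chamber genes in heart, had ratios of opposite sign on the arrays after the loess fit. Its normalized log2 intensity was 12.57 and 12.67 in the channels labelled NOGGIN, against 12.68 and 12.36 in those labelled control, so the groups overlapped. The log2 ratio was -0.11 on array 1 and 0.31 on array 2, with a mean of 0.10 ± 0.30 (SD, n = 2), a 95% interval from -0.36 to 0.56 and an adjusted p of 1.00 by limma. With median centring both signs turned, to 0.26 on array 1 and -0.14 on array 2, and on processed signals both were positive, at 0.03 and 0.11. In the authors' deposited table Tbx2 has the same sign on both arrays, at -1.02 and -1.10, both near a signed fold of 1. By size 49.7% of all features had a larger mean ratio than Tbx2. After the loess fit the ratio of Tbx3 exceeded that of Tbx2 by 0.43 on array 1 and was below it by 0.17 on array 2 (first minus second, -0.17), a mean difference of 0.13 ± 0.43 (SD, n = 2). That difference had an exact sign-flip p of 1, two-sided. A 1.5-fold difference (0.58 on the log2 scale) lay within the intervals of Msx1 and Tbx3, which also include 0, and just above that of Tbx2.

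**Figure D3:**
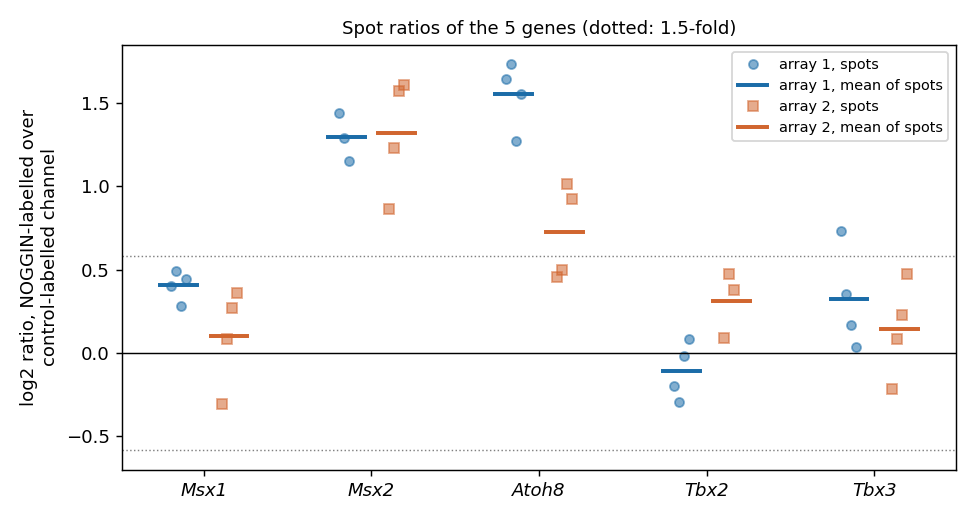
Log2 ratio of the NOGGIN-labelled over the control-labelled channel (y axis) for every spot used, by gene and array, with bars at the mean of the spots and dotted lines at 1.5-fold. Every Msx2 spot lies above the upper dotted line, the Atoh8 spots of the arrays are apart, and spots of Tbx2, Tbx3 and Msx1 fall on both sides of 0. Spots of 1 array share the RNA and are not replicates of the culture.

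Because Msx2 and Atoh8 were higher together, the start regions of both genes are shown, 250 bases before to 50 after the start in RefSeq's annotation of GRCm38.p6. Promoter sequences of 3 of the 5 genes were matched by symbol (Msx1, Msx2 and Atoh8). Short motifs were searched on both strands. The letters GGCGCC form a GC-rich element that SMAD1 and SMAD5 can bind. A homeodomain site open to MSX proteins is TAATTG, and a T-box half-site is AGGTGT. The E-box of bHLH factors is written CANNTG, with N for any base. Capitals mark the E-boxes.
Msx2, chr13:53472731-53473030, minus strand: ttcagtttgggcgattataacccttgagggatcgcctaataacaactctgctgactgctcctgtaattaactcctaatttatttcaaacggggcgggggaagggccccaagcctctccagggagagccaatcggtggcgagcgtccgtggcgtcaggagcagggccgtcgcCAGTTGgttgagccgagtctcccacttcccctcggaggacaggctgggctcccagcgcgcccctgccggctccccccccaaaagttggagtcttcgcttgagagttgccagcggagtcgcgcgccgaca
Atoh8, chr6:72235528-72235827, minus strand: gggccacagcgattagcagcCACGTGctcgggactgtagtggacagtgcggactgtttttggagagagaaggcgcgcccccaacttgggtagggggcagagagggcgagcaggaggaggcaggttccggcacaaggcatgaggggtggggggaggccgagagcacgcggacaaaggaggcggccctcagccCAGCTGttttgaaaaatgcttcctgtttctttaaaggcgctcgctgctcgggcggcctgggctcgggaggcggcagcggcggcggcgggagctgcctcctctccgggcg

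Both stretches are rich in G and C (61% for Msx2 and 66.7% for Atoh8), and they hold 22 and 24 CpG dinucleotides. The E-box CANNTG occurs at 1 place in the Msx2 stretch, 79 bases before the start, and at 2 places in that of Atoh8, 230 and 59 bases before it. It also occurs at 1 place in the Msx1 stretch (210 bases before its start, in a stretch with 70% G and C and 29 CpG dinucleotides) and in 23756 of all 32851 promoter stretches of this length (72.3%). The SMAD element, the homeodomain site and the T-box half-site have 0 matches in the stretches of Msx1, Msx2 and Atoh8. They occur in 3898, 2628 and 4514 of the 32851 stretches. A match is a description of the letters, and its absence says only that these letters are not in these windows.

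The genes whose ratios on the 2 arrays lay nearest to those of Msx2, by Euclidean distance over the 2 log2 ratios among 17773 named features, were Hsd17b2 (distance 0.03, log2 ratios 1.29 and 1.29), Syt1 (0.04, 1.28 and 1.36) and Dmkn (0.13, 1.16 and 1.31). Hsd17b2 encodes a steroid dehydrogenase, Syt1 a synaptic vesicle calcium sensor and Dmkn a secreted epidermal protein. Nearest to Atoh8 were C1ql3 (distance 0.02, log2 ratios 1.53 and 0.73), Cux2 (0.13, 1.67 and 0.78) and Fzd9 (0.14, 1.53 and 0.59). C1ql3 encodes a secreted C1q-like protein, Cux2 a homeodomain factor and Fzd9 a WNT receptor. With 2 arrays such nearness places genes on 2 values only.

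Relatives of the 5 genes mostly stayed below 1.5-fold. Of 13 other T-box genes measured out of 15, 1 was higher by the fold rule and 0 were lower, with a median log2 ratio of 0.09. The higher one was Tbx18, which marks the ureteric mesenchyme (0.88 and 0.65, mean 0.77 ± 0.17, SD, n = 2, limma adjusted p = 0.289). Of 6 MSX and DLX homeobox relatives measured out of 7, 0 were higher and 0 were lower (median -0.11, limma adjusted p of 1.00 for each). Msx3, the third MSX gene, had -0.02 on array 1 and 0.46 on array 2. Under each label, 10 of the 15 T-box genes listed and 5 of the 7 homeobox relatives were well above background on both arrays. The medians also include dimmer genes that passed the filter.

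Of 11 other atonal-related bHLH genes, 4 were measured, with 0 higher and 1 lower. That gene, Bhlha15, which drives secretory cell maturation in exocrine glands, had -1.78 and -2.27 (mean -2.02 ± 0.35, SD, n = 2, limma adjusted p = 0.0864), opposite in sign to Atoh8. Of the 4 measured, 2 had ratios above 0 on both arrays, against 20.4% of all features, and 2 had ratios below 0 on both. The share of all features below 0 on both is not given here. Neurod2 (0.03 and 0.05) and Atoh7 (-0.25 and -0.45), named after their values were seen, were not well above background on both arrays under either label. Atoh1, given here after its value was seen, had 0.96 on array 1 and 0.57 on array 2. It had the sign of Atoh8 but was below 1.5-fold on array 2 (limma adjusted p = 0.341). E proteins, the usual dimer partners of bHLH factors, had 0 of 3 past the fold rule. The median ratio of the 3 E protein genes was 0.04 on array 1, against -0.59 on array 2, and the median of their mean ratios was -0.31.

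The pathway around the 5 genes went both ways. Of 14 BMP-SMAD target genes, 7 (50%) were higher by the fold rule and 0 were lower, with a median log2 ratio of 0.71. The largest were Id2, an inhibitor of bHLH factors (2.59 ± 0.26, SD, n = 2), Smad9, a receptor-regulated SMAD (2.16 ± 0.28), and Id1, another such inhibitor. Msx2 and Atoh8 lay below these and above Smad6 (0.95 ± 0.19), an inhibitory SMAD given here after its value was seen. Of 22 BMP ligands, receptors, SMADs and antagonists, 3 were higher and 6 were lower (median -0.07). Among the lower ones the ligand genes Gdf6 (-2.71 ± 0.19) and Bmp2 (-2.09 ± 0.33) had the largest differences. Limma's adjusted p was 0.0730 for Id1, Id2, Smad9 and Gdf6 and 0.0768 for Bmp2.

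Genes that TBX2 or TBX3 are known to repress in other tissues had 0 of 11 past the fold rule in each direction, with a median of -0.02. Cdkn1a, a cell cycle inhibitor and a classical TBX2 target, had -0.55 on array 1 and -0.77 on array 2, a mean of -0.66 ± 0.16 (SD, n = 2, limma adjusted p = 0.38). On array 1 it was below 1.5-fold. Of 10 WNT-beta-catenin response genes, 3 were higher by the fold rule and 0 were lower (median 0.14): the WNT inhibitor genes Wif1 (1.51 ± 0.45) and Dkk2 (0.84 ± 0.18), whose products are secreted, and Sp5 (1.28 ± 0.34), which encodes a zinc finger factor. Their adjusted p by limma was 0.125, 0.24 and 0.14.

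**Figure D4:**
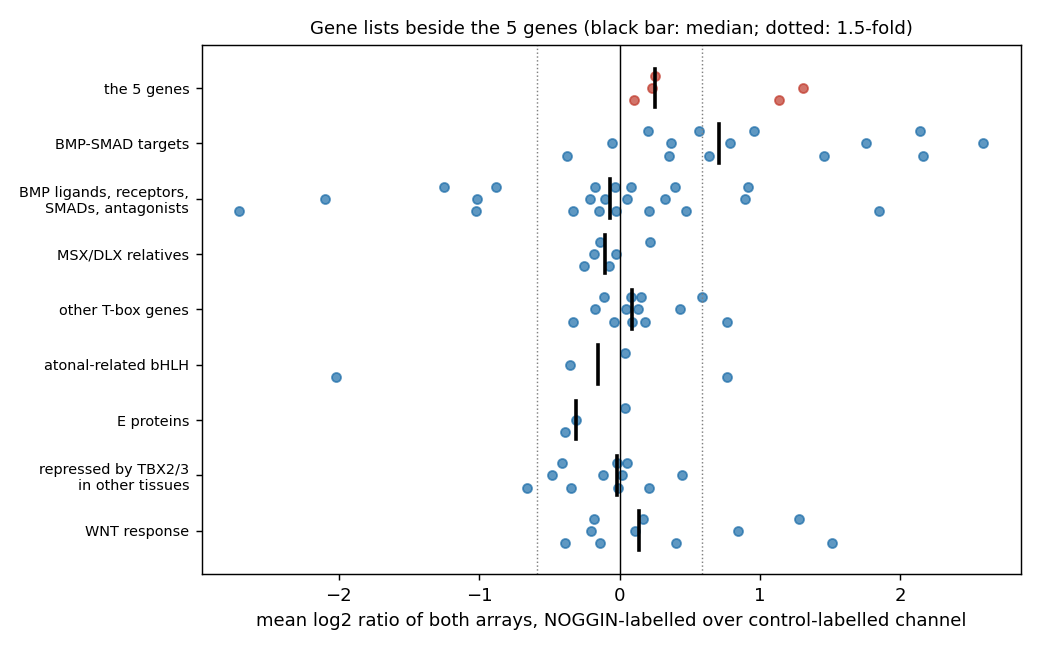
Mean log2 ratio of both arrays (x axis) for the 5 genes (red) and the measured members of 8 gene lists (blue), with a black bar at each median and dotted lines at 1.5-fold. Msx2 and Atoh8 lie within the range of the BMP-SMAD targets, whose median is 0.71, while the medians of the T-box genes (0.09) and of the MSX and DLX relatives (-0.11) lie near 0.

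Markers of the tissue were read on these arrays. All 8 ureteric mesenchyme, 6 smooth muscle and 10 urothelial markers listed were well above background in both channels on both arrays. In whole ureters, fewer cells of a type and less RNA per cell cannot be told apart. Smooth muscle markers had a median of -0.72, with 1 of 6 higher and 3 lower by the fold rule; ureteric mesenchyme markers had 2 of 8 higher and 1 lower, and urothelial markers 0 of 10 in either direction. Markers of endothelium, macrophages, neurons, cartilage and red blood cells had 0 past the fold rule, and those of nephron progenitors and renal stroma had 1 of 6 lower. The macrophage markers were uneven between the arrays. On array 2 they ran from -1.27 (Cx3cr1) to 1.27 (Adgre1), while both of these had 0.11 on array 1. Cx3cr1 and Adgre1 were named after their values were seen. Interferon response genes moved unequally, with a median log2 ratio of 0.64 on array 1 and 3.14 on array 2, and 4 of 6 higher by the fold rule. Their part in the unequal ratios of Atoh8 and Tbx2 was not tested. Atoh8 had its larger ratio on array 1, where the interferon median was the smaller, and Tbx2 had its higher ratio on array 2 after the loess fit but on array 1 with median centring.

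**Figure D5:**
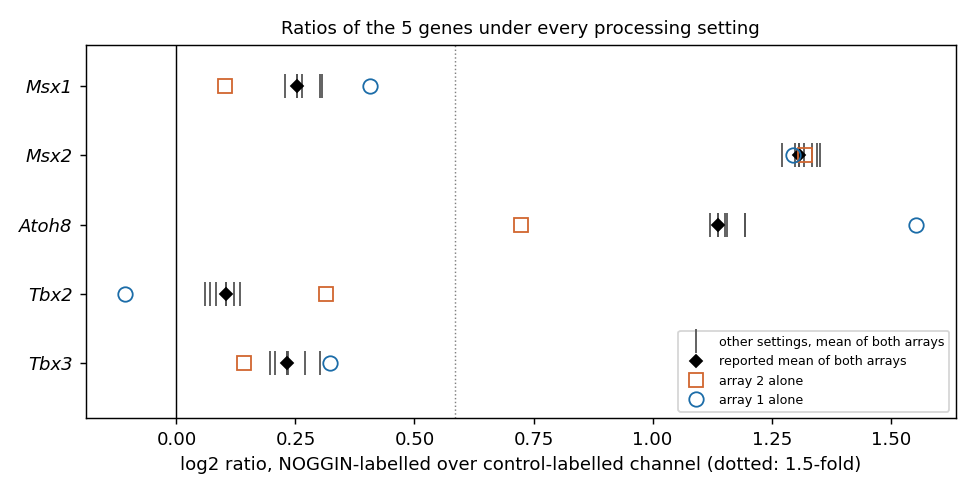
Log2 ratio of the 5 genes (x axis) as reported (black diamonds), under the other processing settings (grey ticks), and on array 1 (blue circles) or array 2 (orange squares) alone, with a dotted line at 1.5-fold. The mean of Msx2 stays between 1.27 and 1.35 in the settings shown, though its arrays were 1.61 and 0.93 with median centring, the single arrays of Atoh8 are far apart at 1.55 and 0.72, and array 1 of Tbx2 lies below 0 at -0.11.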

How the data were processed

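Spot intensity values were deposited as scanner files from Agilent Feature Extraction 10.7.3.1 (per the submitters' processing notes). Per the file headers, mean signals and background medians are not normalized, while processed signals and the log10 ratio of red over green are dye-normalized. The authors' deposited table holds a signed fold score per probe, with no stated normalization. Its correlation with the red-over-green log ratio was 0.891 for array 1 but -0.943 for array 2.

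Background correction was normexp (offset 50), followed by loess within arrays that ignored control spots (R 4.3.3, limma 3.58.1). Flagged spots (3.36% and 3.09%) were left out and the spots of a probe averaged. A probe had to exceed background on both arrays, by most of its spots and in either channel (29649 of 39429 probes). The brightest probe stood for a gene (22311 features), named by RefSeq accession in GRCm38.p6 (71.8% matched). Log2 ratios were fitted with lmFit and eBayes (1 residual and 4.35 prior degrees of freedom; two-sided; Benjamini-Hochberg). Channel intensities were scaled between arrays by Aquantile. The fit was tested on simulated data. Figures used matplotlib 3.10.9.

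Members and lists were chosen with earlier results of these data known. Named are the 5 genes, up to 3 members of each list with the largest mean past the fold rule, Id1, Tbx18, Cdkn1a and the 3 nearest genes of each member past it. One gene that this rule names is not reported here. On array 1, 76.9% of probes exceeded background under the NOGGIN label (green) and 65.3% under the control label (red). For array 2 the shares were 66.4% under the NOGGIN label (red) and 76.4% under the control label (green). The higher share was thus that of the green dye on both arrays. The number of arrays limits the precision. Both arrays share 1 slide and 1 scan.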

Additional observations from a re-analysis of the deposited data

How the results depend on the processing

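Msx1, Msx2, Atoh8 and Tbx3 kept a positive value in all 13 alternatives, single arrays of the loess fit included. With median centring Msx1 was -0.23 on array 2. Several alternatives could not change these ratios, because each gene has 1 probe that passed every filter. They are the changes of the dim-probe filter, the mean of kept probes, the variance setting and the looser threshold. These alternatives bear only on the adjusted p. On single arrays Tbx2 ran from -0.11 to 0.31, turning sign on array 1. Limma passed 1 of the 5 genes at 0.05 in 1 setting: with only probes bright in both channels, Msx2 (1.31) had an adjusted p = 0.0399. The count of the 5 genes past 1.5-fold, 2 as reported, was 1 with median centring and 1 at 2-fold, where Msx2 remained. Of all features 0.681% passed as higher with median centring, against 0.941% as reported. The share of all features at 2-fold is not given here. Other T-box genes, 1 higher as reported, had 3 on processed signals and 3 on the authors' deposited values, 0 with median centring and 0 at 2-fold; each array alone gave 1 to 2. Atonal-related genes, 0 higher, had 1 on processed signals, 1 with spot medians, 1 on the deposited values and from 0 to 1 on single arrays; 1 lower became 2 on processed signals. For E proteins, 0 lower ran from 0 to 2 on single arrays. BMP ligands, receptors, SMADs and antagonists, 3 higher and 6 lower, had 1 and 3 at 2-fold, and from 4 to 5 were higher on single arrays. Genes repressed by TBX2 or TBX3 had 2 lower on processed signals and 2 on the deposited values, with from 0 to 1 higher and from 0 to 2 lower on single arrays. WNT response genes had from 0 to 1 lower on single arrays. Over all features, 488 passed the fold rule as reported and 852 on processed signals; 0 passed limma's adjusted p as reported, 141 with trend and robust variance, 114 with median centring, 100 for probes bright in both channels, 35 without background correction and 22 when flagged spots were kept. The causes were not tested. A single array gives no test. The pairing was used throughout, because each array holds 1 NOGGIN and 1 control sample and the ratio within it is the pair.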
